A study of Mus musculus with 7 samples.

Results

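The genes described here are 48 antiviral genes that type I interferon induces, out of 50686 gene identifiers quantified in each library. They were taken by gene symbol from a list of such genes, and all 48 were found and tested. They were measured by RNA-seq in microglia, the resident macrophages of the brain, that were sorted by FACS for a high content of neutral lipid, stained with the dye Bodipy. The cells came from C57BL/6 male mice, 4 young ones aged 3 to 4 months (14C, 18C, 23C and 29C) and 3 old ones aged 21 to 22 months (2posI, 3posI and 4posI). All 7 mice had transient occlusion of the middle cerebral artery with reperfusion 4 days earlier and received no drug treatment. Each library is 1 mouse, and libraries differed in age group only as far as the labels say. The mouse names end in C in all young and in posI in all old mice, so whatever the endings mean cannot be told apart from age. The study compares age groups after ischemia, so every library is ischemic and no uninjured brain enters these values, and sorting on Bodipy in both ages means that lipid-rich cells, not all microglia, were compared.

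Type I interferons, IFN-α and IFN-β, bind a receptor of the subunits IFNAR1 and IFNAR2. The receptor-bound kinases JAK1 and TYK2 then phosphorylate STAT proteins, which join IRF9 and bind an interferon-stimulated response element (ISRE) in front of target genes. The targets include sensors of viral RNA, enzymes that destroy or block it, proteins that stop viral entry and release, and regulators that raise or end the response. Microglia carry this pathway and are known to turn it on after viral infection, injury and with age.

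Some of the promoters held a close form of the ISRE core. The letters GAAANNGAAA, or TTTCNNTTTC on the opposite strand, were searched in the 250 bases before the annotated start in the RefSeq promoter table (GRCm38.p6). They were found for 15 of the 39 genes that the table holds (38.5%), against 936 of 27025 gene symbols in the whole table (3.46%). Overlapping matches were merged and are in capitals below, in windows with 20 bases on each side, shortened where the start site came first. Shown are the genes with several matches and those of the lowest p in their role group, each read 5′ to 3′ on the strand of its gene. A match is a description of these letters and not a binding site shown in these cells.

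Isg15 (chr4:156200855-156200916, minus strand): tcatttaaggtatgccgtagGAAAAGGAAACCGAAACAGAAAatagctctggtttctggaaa

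Ifit1 (chr19:34640765-34640833, plus strand): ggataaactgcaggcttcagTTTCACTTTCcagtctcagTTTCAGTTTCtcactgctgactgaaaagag

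Ifit3 (chr19:34583353-34583436, plus strand): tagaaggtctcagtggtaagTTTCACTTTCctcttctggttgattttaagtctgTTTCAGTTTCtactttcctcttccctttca

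Oas1a (chr5:120907526-120907565, minus strand): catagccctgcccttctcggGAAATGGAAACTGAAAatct

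Oas1g (chr5:120887614-120887651, minus strand): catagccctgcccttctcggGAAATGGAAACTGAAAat

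Bst2 (chr8:71537567-71537622, minus strand): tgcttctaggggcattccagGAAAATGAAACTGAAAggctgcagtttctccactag

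Rsad2 (chr12:26456543-26456592, minus strand): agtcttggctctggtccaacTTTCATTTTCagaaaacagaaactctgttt

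Lgals9 (chr11:78984950-78984999, minus strand): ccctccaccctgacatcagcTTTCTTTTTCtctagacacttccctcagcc

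Phf11b (chr14:59341351-59341400, minus strand): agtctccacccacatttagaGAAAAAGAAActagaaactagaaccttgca

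The Isg15 window held 3 overlapping matches, and those of Ifit1, Ifit3, Oas1a, Oas1g and Bst2 held 2. Oas1a and Oas1g begin with the same letters, and the window of Ifit3b, the copy of Ifit3, is identical to that of Ifit3. The other matches were in front of Oas3, Trim30a, Ifitm2, Slfn5 and Slfn8.

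Levels are given as CPM, counts relative to the total of a library and scaled between libraries by the TMM method, and, where genes are compared with each other, as TPM, which also divides by transcript length. Library totals were 36574083 to 53002386 expected counts. The lowest value of any of the 48 genes in any library was 25.1 expected counts (Ifitm1 in 18C), and all 48 were above the count minimum of 10 in every library. Fold changes are old over young on the log2 scale, with their SE. Microglial markers summed to 21747 to 32406 CPM in young libraries and to 25296, 11176 and 23483 in 2posI, 3posI and 4posI. Old mouse 3posI stood apart in monocyte markers, with 2035 CPM over 7 genes against 17.2 to 112 in the other 6 libraries, and it had 1522 CPM of border-associated macrophage markers against 129 to 543. No marker of these lists was at 0 in every library. In sorted bulk samples, fewer cells of a type and less RNA per cell cannot be told apart.

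The interferon-stimulated genes were higher in old mice almost throughout, but by amounts that did not pass the test. Of the 48, 46 had a log2 fold change above 0, against 48.8% of the 17559 genes tested, and their median was 0.74. In edgeR's quasi-likelihood test, 0 of the 48 passed 0.05 after Benjamini-Hochberg adjustment over all genes tested, where 0.803% of all genes did. At an unadjusted p under 0.05 there were 24, all higher in old mice, against 10.1% of all genes that were higher at that level. limma-voom called 0 of the 48, against 0.814% of all genes. DESeq2 called 9 of the 48, where it called 9.07% of all genes with an adjusted p in either direction and 4.82% as higher. The 9 were Rnf213, Samd9l, Ifitm3, Oas1a, Bst2, Ifi35, Rsad2, Trim30a and Oas2. In 11 of the 48 all old libraries lay above all young ones, against 8.7% of all genes. On the TPM scale 6 of these 11 did not overlap, Ifitm3, Bst2, Ifi35, Trim30a, Rnf213 and Lgals9. The share of all genes without overlap was counted in CPM only, so these 6 have no background beside them.

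**Figure D1:**
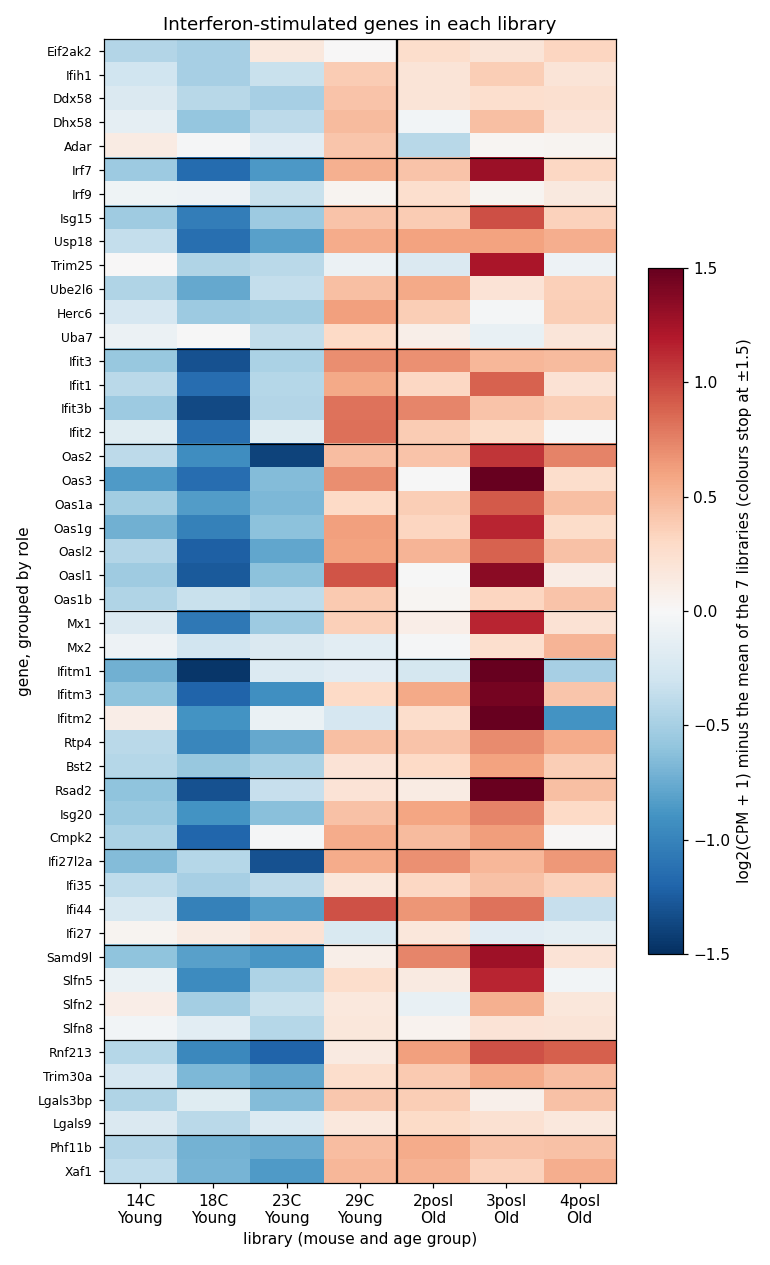
Heatmap of the 48 genes (rows, grouped by role) in the 7 libraries (columns, 4 young and 3 old mice), coloured by log2(CPM + 1) minus the mean of the 7 libraries. Young mouse 29C has the warm colours of the old mice in most rows, and 3posI is the highest library in 26 genes.

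Seen library by library, young mouse 29C carried these genes at the level of old mice. It was the highest young library in 43 of 48, where it was the highest in 23.2% of all genes. The gene sums were 4293 CPM in 14C, 3783 in 18C, 3747 in 23C and 7025 in 29C, and 7010 in 2posI, 8134 in 3posI and 6957 in 4posI. Mouse 29C lay above the lowest old library in 36 of the 48, near its share over all genes (74.2%). It was the other young mice that fell short of theirs, 14C with 7 of 48 (74.9% of all genes), 18C with 3 (71.5%) and 23C with 4 (73.7%). Mouse 29C had the highest value of all 7 libraries in 10 genes, where it did so in 10.1% of all genes. The 10 were Ifih1, Ddx58, Dhx58, Adar, Uba7, Herc6, Ifit2, Ifit3, Ifit3b and Ifi44. The monocyte marker sum of 29C was 23.4 CPM, and its border-associated macrophage sum of 129 CPM was the lowest of the 7 libraries. Neutrophil markers were the highest of the 7 there, at 420 CPM, against 188 to 339 in the other young and 279 to 334 in the old libraries. Most of that sum was Csf3r, at 171 to 323 CPM in every library. The defining neutrophil genes S100a8 and S100a9, which encode calprotectin, were at 74.9 and 21.1 CPM in 29C. S100a8 had 1.10 to 8.61 CPM in the other young and 18.9 to 66.0 CPM in the old libraries, and S100a9 had 0.0588 to 3.22 and 6.11 to 26.7 CPM. Retnlg had 4.60 CPM in 29C, 0.0588 to 0.246 CPM in the other young and 2.20 to 4.08 CPM in the old libraries. These 3 of the 8 listed neutrophil markers separated 29C and the old mice from the other young mice, as most of the interferon-stimulated genes did. Cxcr2 (0.731 CPM in 29C, 0.157 to 0.563 in the other young) and Ly6g (at most 0.311 CPM) did so at low levels. Csf3r, Mmp8 and Camp did not. Mmp8 had 6.52 CPM in 29C and 2.17 to 15.4 CPM in the other young libraries. Camp had 5.03 CPM in 29C, 1.63 CPM in 18C and 0.741 CPM in 3posI. The part of the neutrophil markers in the result was not tested.

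The exceptions to this pattern were Eif2ak2, Trim25, Mx2, Ifitm2 and Ifi27, in which another young library was highest. Against 14C, 18C and 23C only, all old libraries lay above in 40 of the 48, where 11.4% of all genes did so. Mouse 29C was singled out after its values were seen. Without 29C, 0 of 48 passed the adjusted p of 0.05 in edgeR, against 0.0115% of all genes. The median log2 fold change was then 1.08, and 41 had an unadjusted p under 0.05, against 8.57% of all genes that were higher at that level.

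The highest library of most genes was an old one. Old mouse 3posI had the highest value in 26 genes, 2posI in 6 and 4posI in 5, against 21.5%, 16.1% and 12.02% of all genes, so that 3posI alone of the old mice lay well above its share. Without 3posI the median log2 fold change was 0.53, with 0 of 48 and 0.915% of all genes past the threshold. Without both 29C and 3posI, a choice made after the data were seen, the remaining old libraries lay above the remaining young ones in 41 genes, against 17.4% of all genes. The median was then 0.89, and 0 of 48 and 0.0175% of all genes passed. The part of the monocyte, macrophage and dendritic cell markers of 3posI in these values was not tested beyond leaving the library out.

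**Figure D2:**
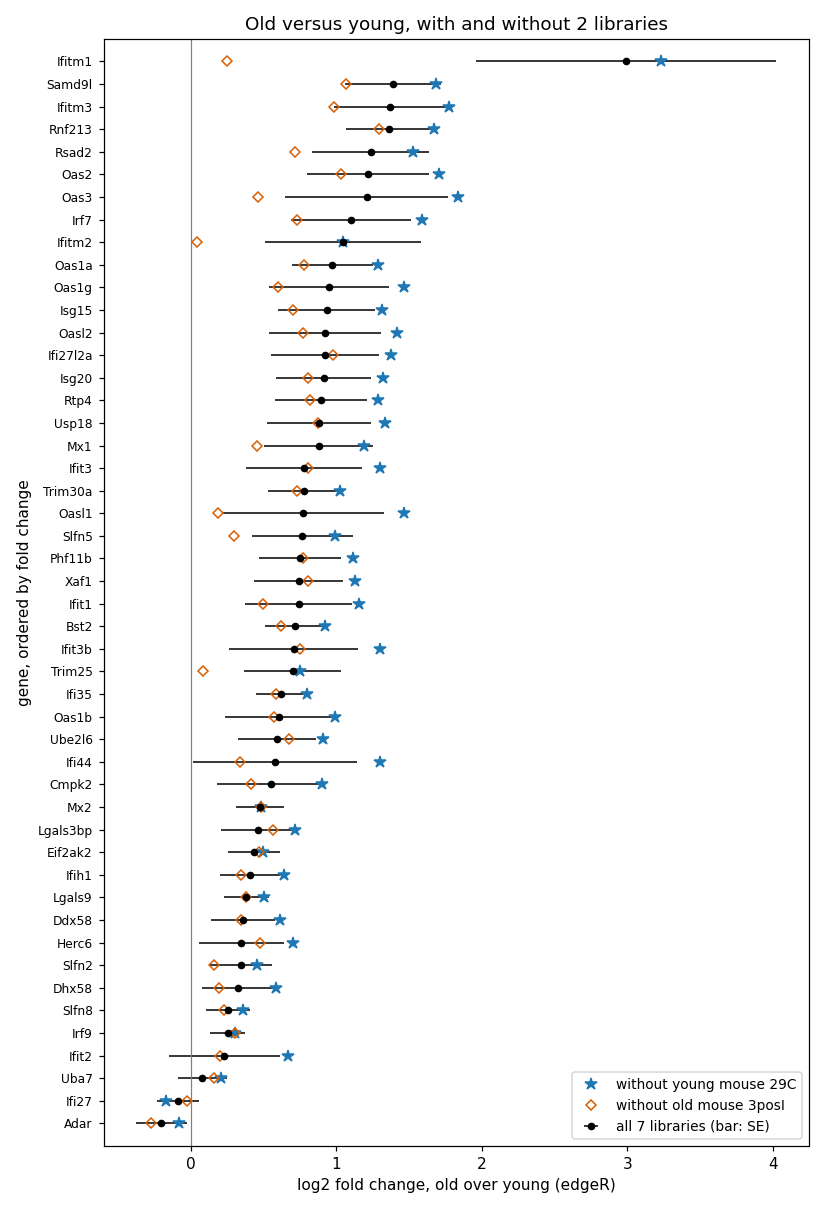
Log2 fold change of each of the 48 genes, old over young, from edgeR with all 7 libraries (black, bars are SE), without young mouse 29C (blue stars) and without old mouse 3posI (orange diamonds). The stars lie to the right of the black points for most genes, and the diamonds of Ifitm1, Ifitm2 and Trim25 lie near 0.

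Cytosolic sensors of viral RNA, with the RNA editor Adar counted among them, had the smallest differences of the larger groups. Of 5 genes, 4 were higher in old mice, with a median log2 fold change of 0.36, or 0.59 without 29C. Eif2ak2, which encodes the kinase PKR that stops translation when it binds viral RNA, had 28.2, 27.0, 43.1 and 38.6 CPM in young and 46.5, 44.1 and 48.3 CPM in old libraries. All old libraries lay above the young ones, the nearest being 23C. Its log2 fold change was 0.44 ± 0.18 (SE; edgeR adjusted p = 0.236), but 0.13 with the gene's effective length in each library as offset, and its TPM overlapped between ages. Dhx58, which encodes the RIG-I-like receptor LGP2 and was the sensor of highest level (mean of 42.3 TPM), had 54.3, 39.5, 45.1 and 83.2 CPM in young and 58.0, 81.9 and 68.9 CPM in old libraries. The highest value was in young 29C, and the log2 fold change was 0.33 ± 0.25 (SE; edgeR adjusted p = 0.514), or 0.19 without 3posI and 0.59 without 29C. The related receptors Ifih1 (MDA5) and Ddx58 (RIG-I) were also highest in 29C, with log2 fold changes of 0.41 and 0.36. Adar, whose protein edits adenosines in RNA and dampens its sensing, was 1 of the 2 genes lower in old mice, at a log2 fold change of -0.20 ± 0.18 (SE; edgeR adjusted p = 0.565).

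Both transcription factors of the list were higher in old mice, to a different extent. Irf7, the factor that amplifies the response by inducing IFN-α genes, had 104, 67.2, 82.4 and 220 CPM in young and 204, 369 and 187 CPM in old libraries. Only 3posI exceeded 29C, and the other young mice lay below all old ones. The means were 118 ± 69.3 (SD, n = 4) and 254 ± 101 CPM (SD, n = 3), and the log2 fold change was 1.10 ± 0.41 (SE; edgeR adjusted p = 0.205), or 0.73 without 3posI. Irf9, the DNA-binding partner of STAT proteins, had 65.8 to 85.0 CPM in young and 85.5 to 98.6 CPM in old libraries, a log2 fold change of 0.25 ± 0.12 (SE; edgeR adjusted p = 0.304). The narrow gap between ages was absent in TPM, with 42.0 to 51.8 in young and 48.1 to 59.5 in old libraries.

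ISG15 is a ubiquitin-like protein that is attached to other proteins during the response. All 6 genes of its conjugation cycle were higher in old mice, with a median log2 fold change of 0.65, but Uba7 was nearly level, at 0.079. Isg15 itself had 25.8, 17.9, 25.7 and 51.0 CPM in young and 49.4, 74.8 and 48.4 CPM in old libraries. Mouse 29C lay within the old range, and the log2 fold change was 0.93 ± 0.33 (SE; edgeR adjusted p = 0.185). Ube2l6, the conjugating enzyme and the highest of the group in TPM (mean of 105), had 63.9, 51.1, 68.0 and 120 CPM in young and 130, 101 and 112 CPM in old libraries. Its log2 fold change was 0.59 ± 0.27 (SE; edgeR adjusted p = 0.275). Usp18, the protease that removes ISG15 and also blocks the receptor, had 104 to 108 CPM in every old library, 105 in 29C and 31.9 to 55.3 in the other young ones. Trim25 is a ligase that activates RIG-I and conjugates ISG15. It had 153 CPM in 3posI and 47.2 to 65.1 CPM in all other libraries, and its log2 fold change of 0.70 was 0.081 without 3posI.

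IFIT proteins bind viral RNA that lacks the cap of host mRNA. The 4 Ifit genes lie close together on chromosome 19 and had log2 fold changes of 0.23 to 0.78, with no member at an unadjusted p under 0.05. Ifit1 had 28.0, 16.5, 27.5 and 56.0 CPM in young and 46.8, 70.1 and 43.6 CPM in old libraries, a log2 fold change of 0.74 ± 0.37 (SE; edgeR adjusted p = 0.318). Ifit3, the highest of the family in TPM (mean of 139), had 107, 63.5, 115 and 260 CPM in young and 256, 225 and 221 CPM in old libraries. Mouse 29C had the highest value of all, and the log2 fold change was 0.78 ± 0.40 (SE; edgeR adjusted p = 0.331). Ifit3 and Ifit3b share 51.2% and 44.5% of their 50-base windows with each other, so RSEM divides reads between them, and with their counts summed the log2 fold change was 0.77. Ifit2 was highest in 29C too, at 204 CPM against 51.4 to 101 CPM in the other young and 113 to 149 CPM in the old libraries.

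Oligoadenylate synthetases make the signal that activates RNase L, which cuts viral RNA. All 7 Oas genes, which lie in 2 clusters on chromosome 5, were higher in old mice, with log2 fold changes of 0.61 to 1.22. Their median was 0.95, or 0.60 without 3posI and 1.46 without 29C. In all 7 the old libraries lay above 14C, 18C and 23C, and 29C was the highest young library. Oas1a (chromosome 5, 120896256 to 120907521), the family's highest in TPM (mean of 97.1), had 84.9, 67.7, 76.0 and 151 CPM in young and 159, 233 and 167 CPM in old libraries. The ages did not overlap in CPM, with 29C just below 2posI, but in TPM 29C (107) exceeded 2posI (106). The Oas1a mean was 94.9 ± 37.9 CPM (SD, n = 4) in young and 186 ± 40.5 CPM (SD, n = 3) in old mice, a log2 fold change of 0.97 ± 0.28 (SE; edgeR adjusted p = 0.131). Oas1a shares 57.6% of its windows with Oas1g, and with both summed the log2 fold change was 0.97. Oas2 and Oas3 had the largest log2 fold changes of the family, 1.22 and 1.21, and that of Oas3 was 0.46 without 3posI. Oas1b, which GENCODE annotates as a polymorphic pseudogene in this reference strain, was the lowest of all 48 genes, with a mean of 2.02 TPM.

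Mx proteins are GTPases that trap viral nucleocapsids. Mx2, annotated as a polymorphic pseudogene, had 13.3, 11.3, 11.9 and 12.5 CPM in young and 13.8, 16.9 and 20.3 CPM in old libraries. The ages did not overlap in CPM, but in TPM 14C (8.14) exceeded 2posI (7.61). Mouse 29C lay among the other young mice, and the log2 fold change was 0.47 ± 0.16 (SE; edgeR adjusted p = 0.173). Mx1 had 17.1, 9.03, 13.5 and 26.0 CPM in young and 21.5, 45.5 and 23.4 CPM in old libraries, a log2 fold change of 0.88 ± 0.38 (SE; edgeR adjusted p = 0.254). Here 29C exceeded 2posI and 4posI, and the log2 fold change was 0.46 without 3posI.

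Membrane restriction factors, a group in which Rtp4 was also counted, mostly keep viruses from fusing with or leaving the cell. All 5 genes were higher in old mice, with a median log2 fold change of 1.05, which was 0.62 without 3posI. Ifitm3 (chromosome 7, 141009586 to 141010770), which blocks fusion of viruses in endosomes, had 165, 109, 133 and 310 CPM in young and 374, 681 and 337 CPM in old libraries. No young library reached the old range, and 29C was the nearest. The log2 fold change was 1.37 ± 0.38 (SE; edgeR adjusted p = 0.125). Bst2 (chromosome 8, 71534255 to 71537456), which encodes tetherin and holds budding virus at the surface, likewise did not overlap, with 206 to 353 CPM in young and 377 to 468 CPM in old libraries and a log2 fold change of 0.72 ± 0.20 (SE; edgeR adjusted p = 0.128). Rtp4, a chaperone of receptors that also inhibits flaviviruses, had a log2 fold change of 0.89.

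Ifitm1 and Ifitm2 are described here because of their values and not by the naming rule. Ifitm1 had 41.5 CPM in 3posI and 0.561 to 2.81 CPM in the other 6 libraries. Its log2 fold change of 2.99 ± 1.03 (SE; edgeR adjusted p = 0.176), the largest of the 48, was 0.25 without 3posI. Ifitm2 had 291 CPM in 3posI and 44.2 to 100 CPM elsewhere, and its log2 fold change of 1.05 was 0.040 without 3posI. In 3posI the monocyte markers summed to 2035 CPM, and their part in these 2 genes and in Trim25 was not tested. Ifitm2 shares 48.5% of its windows with other genes.

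Enzymes acting on nucleotides and RNA were all higher in old mice, with log2 fold changes of 0.55 to 1.24 over 3 genes. Rsad2 (chromosome 12, 26442746 to 26456452) encodes viperin, which makes a chain-terminating nucleotide and sits on lipid droplets. It had 36.3, 21.9, 43.5 and 64.3 CPM in young and 60.3, 157 and 76.1 CPM in old libraries. Mouse 29C exceeded 2posI, and 3posI held the highest value by far. The means were 41.5 ± 17.7 (SD, n = 4) and 97.8 ± 51.8 CPM (SD, n = 3), and the log2 fold change was 1.24 ± 0.40 (SE; edgeR adjusted p = 0.163), or 0.72 without 3posI. Its neighbour Cmpk2, a nucleotide kinase, had a log2 fold change of 0.55. Isg20, an exonuclease that degrades viral RNA, had 10.8, 8.37, 10.3 and 22.6 CPM in young and 25.1, 28.1 and 20.4 CPM in old libraries, a log2 fold change of 0.91 ± 0.33 (SE; edgeR adjusted p = 0.185).

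**Figure D3:**
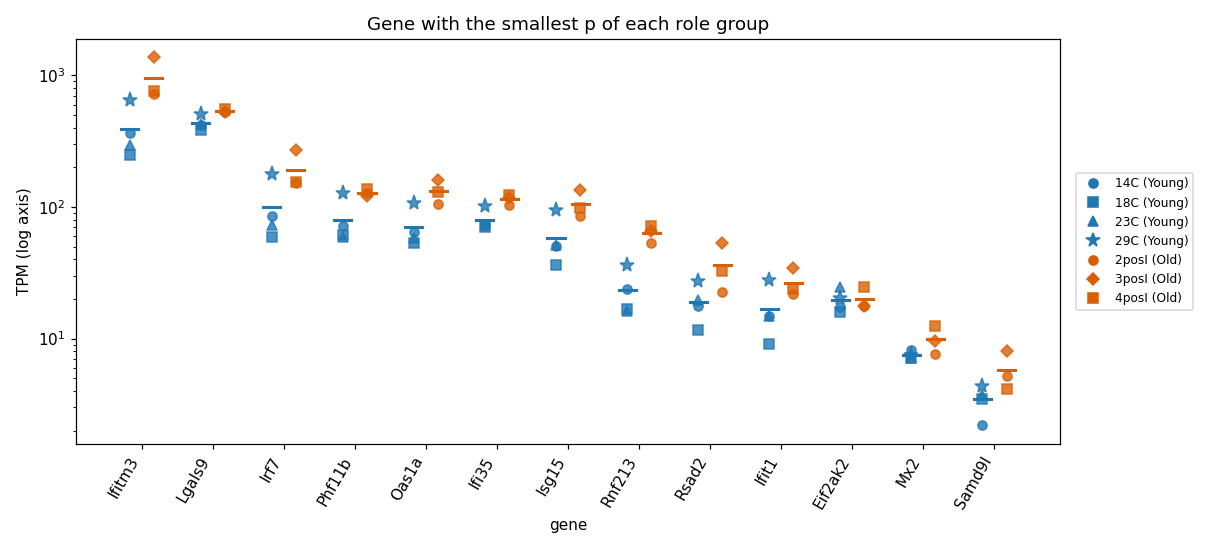
TPM on a log axis in each library for the gene with the smallest p of each role group, young mice in blue and old mice in orange, with bars at the group means. The blue star, 29C, is the highest young value for every gene shown except Eif2ak2 and Mx2.

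Among other Ifi genes, the neighbours Ifi27 and Ifi27l2a on chromosome 12 differed. Ifi27l2a, a small protein of the ISG12 family, was the most abundant of the 48 per length, with a mean of 1066 TPM. It had 187, 219, 119 and 434 CPM in young and 478, 418 and 466 CPM in old libraries. The old libraries and 29C lay close together above the other young ones, and the log2 fold change was 0.92 ± 0.37 (SE; edgeR adjusted p = 0.227). Ifi27 (chromosome 12, 103434211 to 103440239), which ends before Ifi27l2a (103442167 to 103443680) begins, had 67.3 to 91.3 CPM in young and 69.9 to 88.4 CPM in old libraries, with 29C lowest. Its log2 fold change was -0.090 ± 0.14 (SE; edgeR adjusted p = 0.774). Ifi35 (chromosome 11, 101448407 to 101458698), which modulates sensing and is secreted by activated macrophages, had 66.6, 61.6, 66.4 and 98.7 CPM in young and 109, 118 and 111 CPM in old libraries. All old libraries lay above 29C, with a log2 fold change of 0.62 ± 0.17 (SE; edgeR adjusted p = 0.123).

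Samd9l and the Schlafen genes encode proteins that act on translation and tRNA. Samd9l (chromosome 6, 3372257 to 3399572) had 8.32, 7.05, 6.75 and 14.1 CPM in young and 22.5, 33.3 and 15.4 CPM in old libraries. The ages did not overlap, and the margin between 29C and 4posI was small. Its mean was 9.07 ± 3.46 CPM (SD, n = 4) in young and 23.8 ± 9.02 CPM (SD, n = 3) in old mice. The log2 fold change was 1.39 ± 0.33 (SE; edgeR adjusted p = 0.0873), or 0.86 with the effective-length offset, and on the TPM scale 29C (4.37) exceeded 4posI (4.16). Slfn2, which protects tRNA in immune cells, had 257, 169, 190 and 267 CPM in young and 223, 349 and 271 CPM in old libraries, a log2 fold change of 0.35 ± 0.21 (SE; edgeR adjusted p = 0.413) that was 0.16 without 3posI.

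The ubiquitin ligases outside the ISG15 cycle gave the smallest p of all 48 genes. Rnf213 (chromosome 11, 119393100 to 119487418), a giant ligase that coats bacteria and lipid droplets, had 70.0, 47.9, 40.8 and 104 CPM in young and 145, 184 and 177 CPM in old libraries. The ages did not overlap, and the gap lay between 29C and 2posI. The means were 65.7 ± 28.4 (SD, n = 4) and 169 ± 20.8 CPM (SD, n = 3), and the log2 fold change was 1.36 ± 0.30 (SE; edgeR adjusted p = 0.0740). With the effective-length offset it was 1.52 (edgeR adjusted p = 0.0498), and without a filter on low counts the edgeR adjusted p was 0.0315. The effective-length offset called 1 of the 48, this gene, and 1.21% of all genes. Without the filter on low counts Rnf213 and Samd9l passed, and 1.05% of all genes. Trim30a (chromosome 7, 104409025 to 104465193), which restrains inflammatory signalling, had 119, 88.7, 82.5 and 171 CPM in young and 186, 209 and 196 CPM in old libraries. It did not overlap either, with a log2 fold change of 0.77 ± 0.24 (SE; edgeR adjusted p = 0.150).

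Lgals9 encodes galectin-9, a secreted lectin, and had 445, 390, 447 and 575 CPM in young and 631, 607 and 578 CPM in old libraries. The ages did not overlap, with 4posI just above 29C, and the log2 fold change was 0.38 ± 0.16 (SE; edgeR adjusted p = 0.238). Lgals3bp, whose secreted protein binds galectins, was second in TPM (mean of 860) and had 926, 1123, 806 and 1684 CPM in young and 1639, 1341 and 1716 CPM in old libraries, a log2 fold change of 0.46 ± 0.26 (SE; edgeR adjusted p = 0.365). Phf11b, a PHD finger protein, had 58.8, 48.7, 47.3 and 111 CPM in young and 118, 108 and 109 CPM in old libraries. Its log2 fold change was 0.75 ± 0.28 (SE; edgeR adjusted p = 0.208), and it shares 47.0% of its windows with other genes. Xaf1, which promotes apoptosis, had 39.6, 31.6, 28.3 and 73.8 CPM in young and 74.9, 66.2 and 76.0 CPM in old libraries, a log2 fold change of 0.74 ± 0.31 (SE; edgeR adjusted p = 0.238). In both Phf11b and Xaf1, 29C lay within the old range and the other young mice below it.

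The steps above these genes had no shared direction. Of 56 pathway genes, 37 were tested, 16 were higher and 21 lower in old mice, and 0 passed the adjusted p of 0.05 in edgeR, where 2 higher and 4 lower genes had an unadjusted p under 0.05, against 18.9% of all genes in either direction. DESeq2 called 4 of them (Tyk2, Pias3, Jak2 and Socs3), with 9.07% of all genes called. Among 21 interferon genes, 3 had enough counts to be tested. Ifna1, Ifna6, Ifna9, Ifna12, Ifna14, Ifna15, Ifna16, Ifne, Ifng, Ifnl2 and Ifnl3 were at 0 in every library. Ifnb1, which encodes IFN-β, had 0.52, 0.38, 0.235 and 0.667 CPM in young and 0.417, 0.434 and 1.62 CPM in old libraries. The value of 4posI rests on 75 counts, and the log2 fold change of 0.88 ± 0.62 (SE; edgeR adjusted p = 0.476) was -0.082 without it. The Ifnb1 value of 29C was the highest of the young mice, above 2posI and 3posI and below 4posI.

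The receptor subunits did not pass the test, and the old mice differed among themselves in Ifnar1. Ifnar1 had 124, 107, 118 and 117 CPM in young and 77.5, 141 and 88.4 CPM in old libraries, a log2 fold change of -0.19 ± 0.20 (SE; edgeR adjusted p = 0.645). Of the old libraries, 2posI and 4posI lay below all young ones and 3posI above them. The log2 fold change was -0.49 without 3posI (edgeR adjusted p = 0.113), -0.47 on the log2(TPM + 1) scale and -0.34 with the effective-length offset. Ifnar2 had 159 to 182 CPM in young and 163 to 170 CPM in old libraries, a log2 fold change of -0.024 ± 0.11 (SE; edgeR adjusted p = 0.926). In neither subunit was 29C outside the other young mice.

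The kinases that the receptor uses differed from each other. Tyk2 had 53.9, 60.5, 55.6 and 53.1 CPM in young and 28.0, 39.6 and 35.0 CPM in old libraries. All old libraries lay below all young ones, 29C included. The log2 fold change was -0.71 ± 0.14 (SE; edgeR adjusted p = 0.0591), which passed in DESeq2 (adjusted p = 0.000927), and in edgeR without a filter on low counts (adjusted p = 0.0400) and without 3posI (adjusted p = 0.0447). Jak1 had 194, 179, 174 and 182 CPM in young and 202, 214 and 183 CPM in old libraries, a log2 fold change of 0.13 ± 0.11 (SE; edgeR adjusted p = 0.562) that was -0.22 with the effective-length offset. Stat2, a signal transducer, had 70.9, 52.4, 56.7 and 105 CPM in young and 55.5, 73.9 and 66.9 CPM in old libraries, a log2 fold change of -0.13 ± 0.24 (SE; edgeR adjusted p = 0.816), with 29C highest.

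**Figure D4:**
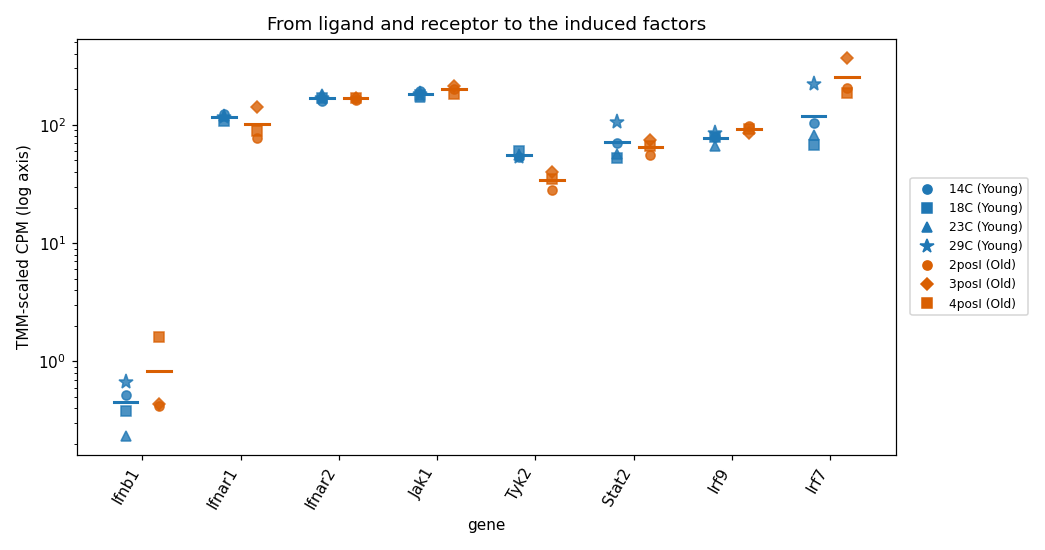
TMM-scaled CPM on a log axis in each library from the ligand gene Ifnb1 and the receptor genes to the factors Irf9 and Irf7, young mice in blue, old mice in orange, bars at group means. Tyk2 is lower in every old library, and the star of 29C is the highest young value of Ifnb1, Stat2, Irf9 and Irf7.

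Jak2, Socs3 and Pias3 are outside the naming rule and were chosen after their values were seen. Jak2, a kinase of related cytokine receptors, had 13.2 to 17.4 CPM in young and 21.6 to 31.7 CPM in old libraries, a log2 fold change of 0.79 ± 0.18 (SE; edgeR adjusted p = 0.0801). The negative regulators Socs3 and Pias3 lay below all young libraries in old mice. Socs3, which blocks cytokine receptor kinases, had 569 to 785 CPM in young and 171 to 481 CPM in old libraries, a log2 fold change of -1.09 ± 0.32 (SE; edgeR adjusted p = 0.133). Pias3, an inhibitor of STAT binding to DNA, had a log2 fold change of -0.68 (edgeR adjusted p = 0.0782). Of the 15 tested genes of upstream sensing, 6 were higher and 9 lower, with 0 past the threshold. Zbp1, a nucleic acid sensor that is itself interferon-induced, had 27.7 to 80.8 CPM in young and 70.0 to 119 CPM in old libraries, with 29C highest among young mice (log2 fold change 0.89, edgeR adjusted p = 0.222).

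**Figure D5:**
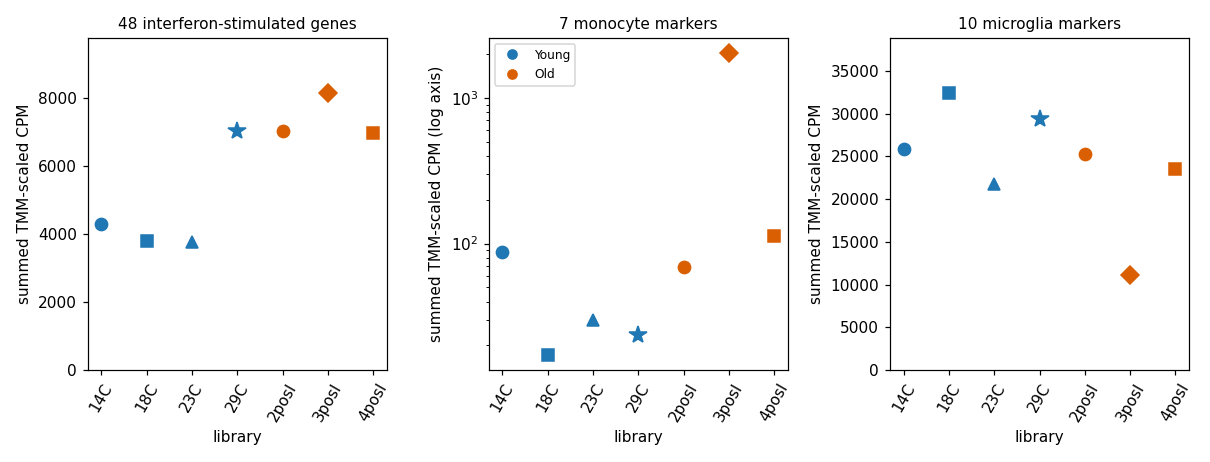
Summed TMM-scaled CPM in each library for the 48 genes, for 7 monocyte markers (log axis) and for 10 microglia markers. For the 48 genes 29C (7025) sits with the old mice, whereas the monocyte markers are high only in 3posI (2035).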

How the data were processed

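RNA-seq libraries of Bodipy+ microglia from 4 young and 3 old mice were analysed. Smart-seq2 libraries were non-stranded and without named molecular identifiers, so PCR copies count as reads and p-values measure the spread between mice. Per the methods, the authors used skewer for trimming, STAR for mapping to GRCm38 and RSEM for GENCODE m15 genes. For STAR and RSEM, versions were not given in the sources used here. As files, the authors deposited expected counts, not normalized, and TPM and FPKM values scaled within each library. The authors also deposited gene lengths and effective lengths. FPKM values were not used.

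The expected counts were rounded. Genes needed more than 10 in at least 1 library, and those on X, Y or the mitochondrial genome in GENCODE vM21 were left out. Identifiers without a position there were not excluded, and 17559 genes remained. TMM factors (0.952 to 1.05) and the quasi-likelihood test came from edgeR 4.0.16 in R 4.3.3, with age group as the only term, and Benjamini-Hochberg adjusted p under 0.05 as threshold. Reads that match several genes are divided by RSEM: 20 of the 48 genes had no library with a whole count (tolerance 0.001). Windows of 50 bases shared with other genes were counted in the transcripts. Alternatives were limma-voom (limma 3.58.1), DESeq2 1.42.0, RLE and upper-quartile factors, other filters, sex and mitochondrial chromosomes kept, effective length as an offset, log2(TPM + 1) with limma, near-identical copies summed, other thresholds and each library left out. The genes and lists were chosen with earlier results of these data known. Named in full are, per role group, the gene with the smallest p and the highest mean TPM, and 7 pathway genes, of which 1 is not reported here. No permutation test was run, since 3 against 4 libraries allow no p below 0.0286.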

Additional observations from a re-analysis of the deposited data

Results flagged for a closer look

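In 85 genes of the 48 and the pathway lists, the 4 young libraries were searched for a value far from the other 3. The gap to the nearest, as a share of the range, was above Dixon's 95% critical value in 11 genes, where chance flags about 1 in 20 groups, or 4.25. Of these, 5 were interferon-stimulated genes, in each of which 29C was high. The share was 0.899 for Oas1b, 0.846 for Oas1g, 0.843 for Oas3, 0.850 for Bst2 and 0.866 for Ifi35. For Oas1g the value of 29C was 45.0 CPM, against 13.8 to 18.6 CPM in the other young libraries, and for Bst2 353 CPM, against 206 to 228 CPM. These genes share libraries, so their flags are not separate observations.

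In the pathway genes, 14C was high for Ifna2 (share 1, at 2 counts), Ifnz (0.871) and Ifnlr1 (1, at 17 counts with the others at 0). Mouse 23C was low for Socs1 (0.915, 3.88 CPM against 6.43 to 6.67) and high for Ptpn11 (0.846, 47.3 CPM against 26.8 to 30.0). Irf3 was low in 29C (0.836, 59.2 CPM against 63.3 to 64.1).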

How the results depend on the processing

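The direction held widely: 46 of 48 genes were higher in old mice with all libraries, and 45 to 46 with each library left out. The number past the adjusted p of 0.05 (0 in edgeR) was 9 with DESeq2, 2 without a filter on low counts and 1 with the effective-length offset, 2 at an adjusted p under 0.1 and 24 at an unadjusted p under 0.05, and 0 with each library left out or with limma-voom. The count of genes with ages that do not overlap (11) was 6 on the TPM scale, 11 to 40 with each library left out, the 40 without 29C, and 41 without 29C and 3posI. The share over all genes was not computed at an adjusted p under 0.1. It was also not computed for non-overlap on the TPM scale or with a single library other than 29C left out. The median log2 fold change ranged from 0.53 (without 3posI) to 1.08 (without 29C) with each library left out. Pathway genes past the threshold (0) were 4 with DESeq2, 1 without a filter and 0 to 1 with each library left out. Of 540 values of 30 named genes under the alternatives, 521 kept direction and side of the threshold and 13 passed it anew. The 6 that reversed were values of Jak1 (-0.22 with the effective-length offset, -0.32 on the TPM scale), Stat2 (0.030 without 29C and 3posI, and -0.24 to 0.12 with each library left out), Ifnar2 (-0.047 to 0.010) and Ifnb1 (-0.082 to 1.19). The cause was not tested. No paired analysis was possible because the labels give no pairing of young with old mice. The low counts of Ifnb1 and of the other interferon genes limit what can be said of the ligands.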
